A study of Mus musculus with 8 samples.

Results

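The genes described here build the machinery that copies DNA: the proteins that mark replication origins, load and start the helicase, synthesize DNA and join the new strands. The 41 genes were taken by name, 10 groups of subunits or partners in all, with every probe set assigned to a single one of them, which gave 89 probe sets. They were read among 18194 genes with such a probe set, of which 16254 were expressed above log2 5 in at least 2 tumors. The arrays (Affymetrix, mouse) held RNA of the LSL-MYCN;Dbh-iCre mouse, a neuroblastoma model, and each of the 8 tumors had 1 array. Tumors 1 to 6 were adrenal, whereas tumors 7 and 8 had grown in the superior cervical ganglion, part of the sympathetic chain. All tumors shared the same genotype and were untreated. In this genotype a human MYCN cDNA and an IRES-luciferase cassette lie in the ROSA26 locus behind the CAG promoter and a loxP-flanked stop (LSL). The improved Cre (iCre) is driven by the dopamine β-hydroxylase gene (Dbh), so the stop is removed in noradrenergic cells, and tumors arise from a human cDNA under a foreign promoter. The model was bred on a mixed strain background, and the ages at excision are not given in the sources used here. Nor do these sources tie each tumor to its own mouse, and the p-values thus measure the spread between these 8 tumors. Normal adrenals were not analysed here, and levels are therefore described among the tumors.

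Replication is prepared in G1, when the origin recognition complex (ORC) binds DNA and, with Cdc6 and Cdt1, loads the MCM2-7 ring. In S phase the ring is activated by Cdc45 and the GINS complex, and polymerases alpha, delta and epsilon synthesize DNA on the unwound strands. The clamp PCNA holds polymerases delta and epsilon, and the single-strand binder RPA helps. Many of these genes are transcribed in waves of the cell cycle under E2F factors, and the MYC family, to which MYCN belongs, is known for driving cells into S phase.

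All values are deposited log2 levels, so a difference of 1 is a doubling, and a gene with several probe sets was read from the one whose mean was highest, its representative. Levels of different probe sets depend on their probes and were not compared with one another. A probe set was called detected above the 95th percentile of 86 probe sets of olfactory, vomeronasal and taste receptors, which lay at 6.71 to 7.21 in the 8 arrays. In these arrays 43.1% to 51.7% of probe sets were detected. As a sign of RNA quality, Gapdh read 5.51 higher at its 3′ than at its 5′ probe set in tumor 1, against 0.47 to 1.57 in the other tumors. Of 10 measured markers of sympathetic neuroblasts, all were detected in 7 tumors and 9 in tumor 7. There Gata3, a transcription factor of this lineage, was 5.22 and below the limit (11.12 to 11.80 elsewhere). The summed level of these markers was 14.64 on the log2 scale in tumor 7, 16.45 to 16.77 in the adrenal tumors and 16.69 in tumor 8. Tumor 6 had all 8 measured hepatocyte markers above the limit, against 0 to 2 in each other tumor, and 6 and 5 of 9 skeletal muscle markers were detected in tumors 7 and 8, against 0 to 2 in each adrenal tumor.

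All 41 replication genes were detected in every tumor. Among the 89 probe sets, 73 were detected in every tumor, 7 in some and 9 in none, and 30 genes had several probe sets. Orc1, a subunit of ORC, came closest to the limit, with levels of 7.24 to 7.70. At a stricter limit, the 99th percentile of the receptors, 40 of 41 genes were detected in every tumor, and Orc1 was the exception.

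Many of the replication genes had their lowest or highest levels in the same few tumors. Tumor 5 held the lowest level of 23 of the 41 genes (14.4% of all genes tested were lowest there), and tumor 2 that of 10 (8.04%). Tumors 1 and 3 each held the highest level of 15 genes (26.3% and 11.0% of all genes). The median deviation of the 41 genes from their own means was 0.23 in tumor 1, -0.33 in tumor 2, 0.30 in tumor 3, 0.14 in tumor 4 and -0.45 in tumor 5. In tumors 6, 7 and 8 it was -0.000745, 0.07 and -0.05. Thus tumors 2 and 5 lay low, tumors 3 and 4 lay high, and tumor 6 and the ganglion tumors lay between them. On these representatives tumor 1, with its wide Gapdh gap, lay high too. Its median was 0.23 with the mean of all probe sets of a gene and 0.17 with every probe set on its own. On plain _at probe sets it was 0.077 for the replication genes and 0.086 for all genes tested. Among plain _at probe sets detected in every tumor, the medians were 0.08 and 0.02. Whether tumor 1 lay above all genes thus depended on the genes compared. On the representatives the median over all genes tested stayed between -0.06 and 0.11. Set tumor against tumor, 40 of 41 genes were higher in tumor 4 than in tumor 5 (47.6% of all genes), with Orc5 as the exception, and 37 were higher in tumor 3 than in tumor 5 (55.3% of all genes). With 1 array per tumor these counts are a description without a test.

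**Figure D1:**
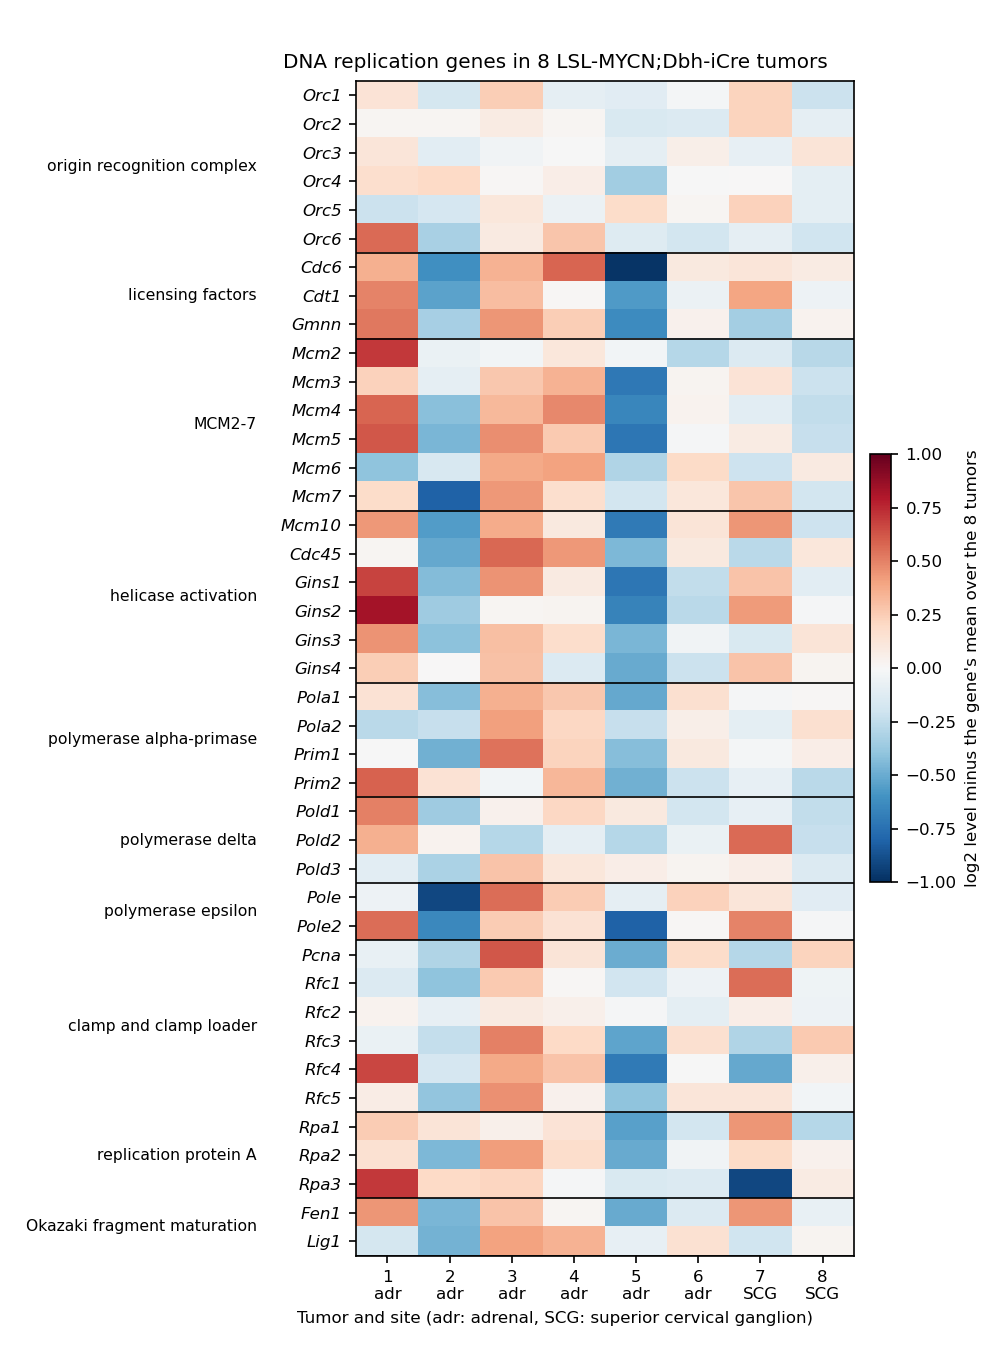
Level of each of the 41 replication genes (vertical axis, by group) in each tumor (horizontal axis), colored by its log2 level minus the gene's mean over the 8 tumors. Tumor 5, where 23 genes were lowest, and tumor 2, where 10 were, are mostly blue, whereas tumor 3, where 15 genes were highest, is mostly red and the rows of Orc3 and Rfc2 stay pale.

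Levels of other cell types differed between the same tumors. The summed level of 7 fibroblast and pericyte markers was highest in tumor 1 (14.85) and lowest in tumor 5 (11.75), with 13.73 in tumor 2 and between 13.35 and 14.31 otherwise, and 7 were detected in every tumor but tumors 5 and 7, with 6 each. The summed level of 6 endothelial markers was lowest in tumor 5 as well, at 8.55, with 9.07 in tumor 3 as the next and up to 10.03 elsewhere. Of these markers 5 were detected in tumor 8 and 1 or 2 in each other tumor. The endothelial sums outside tumor 8 thus held mostly markers below the limit. The neuroblast markers summed to 16.77 in tumor 5, 16.75 in tumor 4, 16.64 in tumor 2, 16.50 in tumor 3 and 16.45 in tumor 1. In tumor 5 the replication genes and the fibroblast and pericyte markers were low together, whereas in tumor 2 these markers were not at the low end. The part of these cells in the replication levels was not tested. In such bulk RNA, fewer cells in cycle and less RNA per cell cannot be told apart.

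The width of the differences was set out by the range, the highest minus the lowest of the 8 levels. The median range was 0.98 for the replication genes and 0.77 for all genes tested, and 19 of 41 (46.3%) exceeded 1, against 34.6% of all genes. The groups ran from ORC, with a median range of 0.45 and no gene above 1, to polymerase epsilon, with 1.42. The licensing factors (1.16), MCM2-7 (1.15) and the helicase activators (1.12) followed. Median ranges were 0.99 for the clamp and its loader, 0.98 for RPA, 0.94 for polymerase alpha-primase, 0.91 for Okazaki fragment maturation and 0.85 for polymerase delta.

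The starts of genes with a range above 1 and of genes with a range of 1 or less were searched for short strings bound by cell cycle factors. RefSeq promoters (build GRCm38.p6, from 250 bases before to 50 bases after the start) were found for 33 of the 41 genes. An E2F site was searched as TTTCCCGC, TTTCGCGC, TTTGCCGC or TTTGGCGC on both strands, and such matches can overlap one another. It was present in 15 of 33 replication genes (45.5%) and in 704 of 27025 genes in all (2.60%). Per promoter the shares were 36.6% of 41 and 2.26% of 32851. The replication promoters were richer in G and C, with a median of 61.3% against 52.7%, and of the 8610 promoters with at least that content 4.33% held the string. Of the genes with a range above 1, 7 of 13 held it, and of the others 8 of 20. The windows below show it in the promoters of 3 genes with a range above 1, Cdc6, Mcm5 and Mcm7. They also show it in 3 with a range of 1 or less, Orc1 (0.46), Orc3 (0.24) and Pola1 (0.87). These ranges are those of the representatives. That of Orc1 lay close to the detection limit, and its second probe set had a range of 1.49. The range of Pola1 was above the median of all genes tested, 0.77. Each window is written 5′ to 3′ on the gene's strand, with the match in capitals. They lie at chr11:98908002-98908031 (Cdc6, plus strand), chr8:75109345-75109374 (Mcm5, plus), chr5:138172030-138172059 (Mcm7, minus), chr4:108579416-108579445 (Orc1, plus), chr4:34614965-34614994 (Orc3, minus) and chrX:93632275-93632304 (Pola1, minus), all upstream of the start.
Cdc6: gccggtggagaGCGGGAAAtcgcctggggt
Mcm5: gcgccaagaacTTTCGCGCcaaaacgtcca
Mcm7: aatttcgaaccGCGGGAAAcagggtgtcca
Orc1: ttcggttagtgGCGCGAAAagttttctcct
Orc3: ccatgcctcccTTTCCCGCacgccccgcct
Pola1: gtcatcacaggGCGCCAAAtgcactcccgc
The match begins 138 bases upstream of the start in Cdc6, 153 in Mcm5, 165 in Mcm7, 27 in Orc1, 41 in Orc3 and 138 in Pola1. In Cdc6, Mcm7, Orc1 and Pola1 it reads as the reverse complement of a searched string. Other strings were less set apart. The E-box CACGTG, a string bound by the MYC family, was in 6 of 33 replication genes (18.2%) and in 8.09% of all genes, CCAAT in 63.6% and 41.1%, and the string TTTGAA or TTTAAA, known as CHR, in 21.2% and 30.6%. The E-box was in 0 of 13 genes with a range above 1 and in 6 of 20 others, read from representatives. Of these 6, Rpa1, Rfc1 and Fen1 exceeded 1 on another probe set detected in every tumor, with 1.39, 1.33 and 1.30. Orc4, Pola2 and Lig1 had no such probe set. A match of letters is a description of the promoter, and binding was not measured.

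ORC, which marks the origins, had the smallest median range of the groups. The median deviation of its 6 genes lay between -0.14 and 0.13 in every tumor, but reached 0.29 in tumor 1 and 0.22 in tumor 7 with the mean of all probe sets of a gene. Orc6, the smallest subunit, was 11.00, 10.11, 10.52, 10.71, 10.30, 10.25, 10.34 and 10.24 in tumors 1 to 8 (SD 0.29). It was high in tumor 1 and low in tumor 2, and the ganglion levels fell inside those of the adrenal tumors. Orc4, an ATPase-fold subunit, was 9.47, 9.50, 9.31, 9.37, 8.95, 9.30, 9.31 and 9.20 in the same order (SD 0.17). Tumor 5 lay below the other 7 on this probe set, whereas 1423336_at and 1423337_at of the same gene were lowest in tumor 2. Orc3, a further subunit, had 9.50, 9.27, 9.34, 9.37, 9.29, 9.43, 9.29 and 9.51, a range of 0.24, and no tumor stood apart on this probe set. Its 1416116_at and 1416117_at had ranges of 0.66 and 0.56, and tumor 1 was highest on both. The ranges of Orc1, Orc2 and Orc5 were 0.46, 0.37 and 0.45. Some other probe sets of ORC genes gave wider ranges too. The second probe set of Orc1 (1422663_at) spanned 6.03 in tumor 2 to 7.52 in tumor 3, a range of 1.49, and was detected in 6 tumors. For Orc2, 1418226_at was lowest in tumor 1 (7.73), whereas 1418227_at was second highest there (8.39).

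The licensing factors bring the MCM ring to ORC or hold it back, and all 3 were lowest in tumor 5. Cdc6, the ATPase that completes loading, was 9.14, 8.17, 9.13, 9.37, 7.80, 8.88, 8.90 and 8.87 in tumors 1 to 8 (SD 0.53). The level in tumor 4 was 2.96-fold that in tumor 5, tumor 2 was next to lowest, and both ganglion tumors lay within the adrenal range. Cdt1, the partner that carries the ring, was 12.50, 11.47, 12.32, 12.02, 11.44, 11.95, 12.40 and 11.96 (SD 0.40). It shared the low levels of tumors 2 and 5 and was high in tumors 1, 7 and 3. Its second probe set (1424144_at) was highest in tumor 3 (10.93) and lowest in tumor 5 (9.86). Gmnn, which encodes the Cdt1 inhibitor geminin, ran from 10.11 in tumor 5 to 11.27 in tumor 1.

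The MCM2-7 genes encode the 6 subunits of the helicase ring. Their median deviation was 0.41 in tumor 1, -0.29 in tumor 2, 0.35 in tumor 3, 0.30 in tumor 4 and -0.48 in tumor 5 (in tumor 1 it was -0.03 from plain _at probe sets). On the representatives all 6 genes were below their means in tumors 2 and 5. On 1448777_at Mcm2 was above its mean in tumor 2 (10.94 against 10.89). Mcm5 was 12.51, 11.42, 12.35, 12.14, 11.16, 11.88, 11.96 and 11.65 in tumors 1 to 8 (SD 0.46), 2.54-fold higher in tumor 1 than in tumor 5. Mcm4 followed a like order with 11.88, 10.88, 11.62, 11.78, 10.64, 11.33, 11.19 and 11.05 (SD 0.44). The ganglion levels of Mcm4 and Mcm5 lay inside the adrenal range. Mcm6 had the smallest range, with 11.25, 11.49, 12.03, 12.05, 11.35, 11.84, 11.44 and 11.74 (SD 0.31). On the representatives Mcm6 differed from its partners in tumor 1, where it was lowest of the 8. The second detected probe set of Mcm6 (1438852_x_at) was 11.73 there and lowest in tumor 5 (11.06). Other probe sets of the partners varied in tumor 1. Mcm3 on 1426652_at (9.67, mean 10.10) and Mcm7 on 1416030_a_at (10.56, mean 10.97) were low. Mcm4 on 1416214_at, Mcm5 on 1415945_at and Mcm7 on 1439269_x_at were above their means. The ranges of Mcm2, Mcm3 and Mcm7 were 1.00, 1.07 and 1.24, and Mcm7, with 4 probe sets, was lowest in tumor 2 on every one of them.

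The next 6 genes act in turning the loaded ring into a moving helicase. Their median deviation in tumor 5 was -0.59, next to the -0.63 of the licensing factors. On the representatives 5 of 6 were lowest in that tumor, and all 6 were above their means in tumors 1 and 3. Gins2, a subunit of the GINS complex that holds the helicase together, was 9.96, 8.77, 9.15, 9.16, 8.46, 8.86, 9.55 and 9.11 in tumors 1 to 8 (SD 0.47). The highest level was 2.83-fold the lowest, and tumor 7 was next to tumor 1. Gins1 had 11.07, 9.95, 10.84, 10.48, 9.67, 10.15, 10.67 and 10.28 (SD 0.47), with the same extremes. Gins4 varied least, with 9.98, 9.73, 10.03, 9.60, 9.23, 9.51, 10.01 and 9.75 (SD 0.28). In Gins4 tumor 2 was not low, and tumor 5 remained the lowest. Gins3, Cdc45, which joins the ring to GINS, and Mcm10, needed for activation, had ranges of 0.91, 1.08 and 1.15. Both Gins2 probe sets were highest in tumor 1 and lowest in tumor 5. The second probe set of Cdc45 (1457838_at) had a range of only 0.34 at levels of 7.44 to 7.78.

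**Figure D2:**
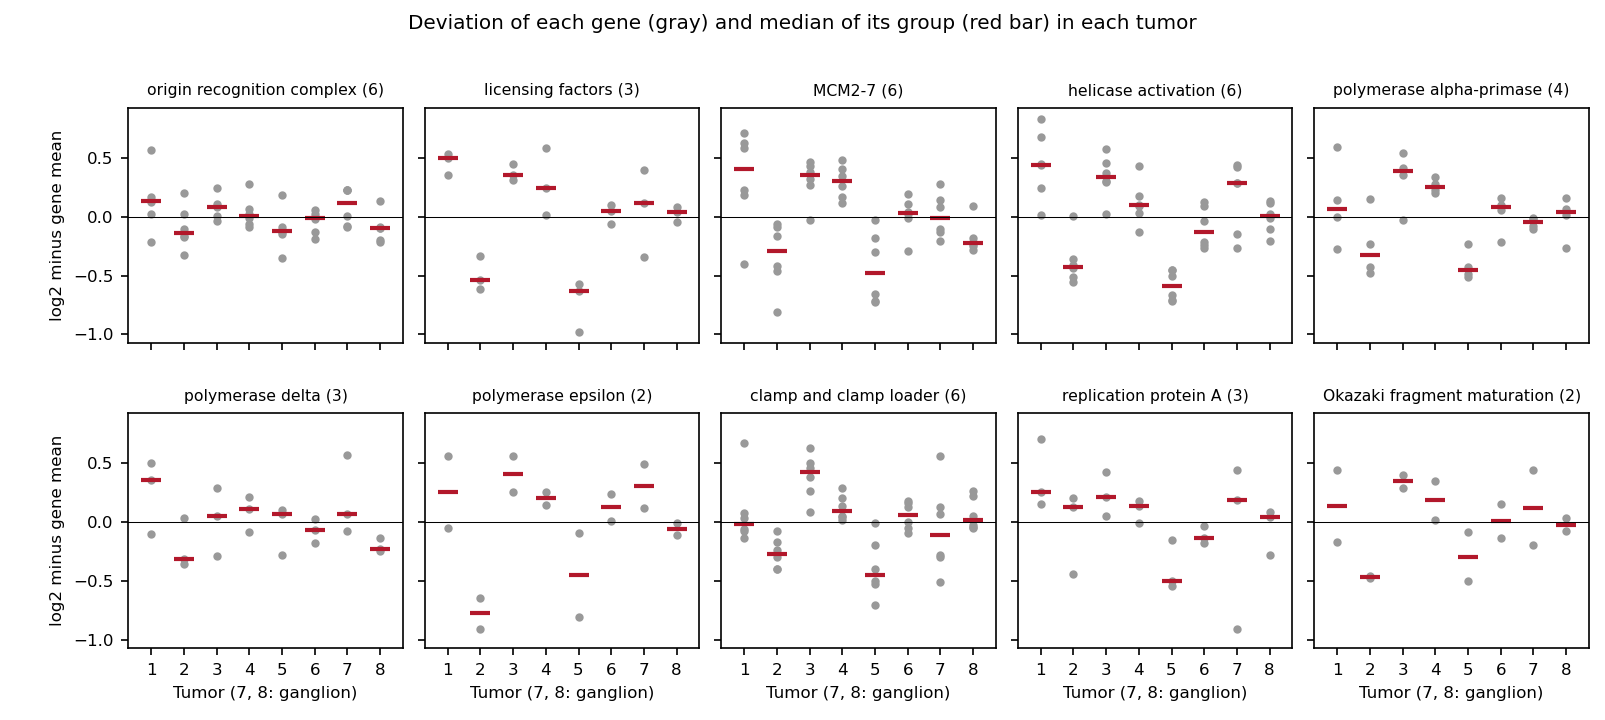
Deviation of each gene from its mean over the 8 tumors (vertical axes, log2) by tumor (horizontal axes), with a panel for each group and its number of genes in brackets. Gray points are genes and red bars their median, which runs from -0.14 to 0.13 in the ORC panel and from -0.59 in tumor 5 to 0.44 in tumor 1 in the helicase activation panel.

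Polymerase alpha-primase lays down the RNA-DNA primers. The median deviation of its 4 genes was 0.38 in tumor 3 and -0.45 in tumor 5. Prim2, the large primase subunit, was 10.38, 9.93, 9.76, 10.12, 9.30, 9.57, 9.71 and 9.52 in tumors 1 to 8 (SD 0.35). Prim1, the catalytic primase subunit, was 11.27, 10.79, 11.82, 11.50, 10.85, 11.37, 11.25 and 11.34 (SD 0.33). The 2 primase genes thus had their highest levels in different tumors, 1 and 3. This difference turned on the probe set, since the second probe set of Prim2 (1418036_at) was highest in tumor 3 (9.64) and that of Prim1 (1449061_a_at) in tumor 1 (11.63). Pola2, the regulatory subunit of the polymerase, had the smallest range of the group (0.68), with 8.97, 9.01, 9.65, 9.44, 9.01, 9.30, 9.14 and 9.40. Pola1, the catalytic subunit, ran from 8.69 in tumor 5 to 9.56 in tumor 3.

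Polymerase delta, which extends the lagging strand, moved less with the other groups, and the median deviation of its 3 genes was 0.07 in tumor 5. Pold1, its catalytic subunit, was 10.81, 9.95, 10.35, 10.52, 10.41, 10.13, 10.23 and 10.06 in tumors 1 to 8 (SD 0.28), low in tumor 2 and not in tumor 5. Its second probe set (1448187_at) was lowest in tumor 7 (8.80) and highest in tumor 4 (9.33), with 8.87 in tumor 2 and a range of 0.53. Pold3, an accessory subunit, was 9.53, 9.31, 9.92, 9.74, 9.70, 9.65, 9.69 and 9.49 (SD 0.18). Pold2 spanned 10.62 in tumor 3 to 11.48 in tumor 7. It was the only gene of the 41 with its lowest level in tumor 3.

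Polymerase epsilon, which extends the leading strand, had the largest median range of the groups. Pole, its catalytic subunit, was 9.74, 8.88, 10.35, 10.05, 9.70, 10.03, 9.91 and 9.68 in tumors 1 to 8 (SD 0.43). Tumor 2 lay below the other 7, and the level in tumor 3 was 2.76-fold that in tumor 2. Pole2, its second subunit, was 9.69, 8.48, 9.38, 9.27, 8.32, 9.14, 9.62 and 9.12 (SD 0.49). Tumor 5 did not stand apart for Pole and was lowest for Pole2, and tumor 2 was low in both genes.

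The sliding clamp and its loader keep polymerases on DNA. On their representatives all 6 genes were above their means in tumors 3 and 4 and below them in tumors 2 and 5. The medians were 0.42 in tumor 3 and -0.45 in tumor 5. Rfc4, a loader subunit, was 11.10, 10.26, 10.81, 10.71, 9.72, 10.42, 9.91 and 10.48 in tumors 1 to 8 (SD 0.46), with both probe sets highest in tumor 1 and lowest in tumor 5. Pcna, the clamp itself, was 12.93, 12.71, 13.63, 13.14, 12.51, 13.19, 12.72 and 13.23 (SD 0.36). Tumor 3 was its highest and tumor 5 its lowest. Rfc2, another loader subunit, had the smallest range of all 41 genes, with 10.77, 10.66, 10.82, 10.79, 10.73, 10.64, 10.80 and 10.69, a spread of 1.13-fold. This held for a single probe set, and 2 others of Rfc2 (1457669_x_at and 1457638_x_at) had ranges of 1.08 and 1.03, each with tumor 1 highest. These were below their means in tumor 3 (8.56 and 7.63) and above them in tumor 5 (8.83 and 7.95). So was 1451920_a_at of Rfc1 (7.96 in tumor 3 and 8.26 in tumor 5). In these tumors 1449050_at of Rfc1, 1432538_a_at of Rfc3 and 1438161_s_at of Rfc4 went with their representatives. The ranges of Rfc1, Rfc3 and Rfc5 were 0.96, 1.03 and 0.86.

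RPA coats single-stranded DNA. Rpa3, its smallest subunit, had the widest range of the 41 genes, with 11.71, 11.20, 11.22, 10.99, 10.85, 10.87, 10.09 and 11.09 in tumors 1 to 8 (SD 0.46). Tumor 1 was 3.06-fold above tumor 7, and the other ganglion tumor lay within the adrenal range. Rpa2, which is phosphorylated in S phase, was 10.45, 9.85, 10.72, 10.47, 9.79, 10.26, 10.48 and 10.34 (SD 0.32), low in tumors 2 and 5. Rpa1, the DNA-binding large subunit, ran from 11.49 in tumor 5 to 12.48 in tumor 7. Its second probe set (1423293_at) was lowest in tumor 1, at 10.12 against 10.63 to 11.51. A second Rpa2 probe set (1454011_a_at) was 5.15 in tumor 1, below the limit, and 7.12 to 8.89 in the others.

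Okazaki fragments are trimmed by Fen1, a flap endonuclease, and sealed by Lig1, a DNA ligase. Fen1 was 12.00, 11.09, 11.84, 11.57, 11.05, 11.42, 11.99 and 11.48 in tumors 1 to 8 (SD 0.37). Lig1 was 11.31, 11.01, 11.89, 11.83, 11.40, 11.64, 11.29 and 11.51 (SD 0.30). Tumor 2 was low for both, whereas tumors 1 and 7 were high for Fen1 and below the mean for Lig1.

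The probe sets of a gene were set side by side because tumor 1, with its wide Gapdh gap, held many of the highest levels. For 22 genes at least 2 probe sets were detected in every tumor, and all of them were lowest in the same tumor for 12 genes and highest in the same tumor for 6. The same counts over all genes are not given here. The median disagreement of a probe set with the representative of its gene was 0.33 in tumor 1 and 0.11 to 0.20 elsewhere. Over all genes it was 0.32 and 0.12 to 0.19. In tumor 1 the 28 detected probe sets of replication genes named _a_at, _s_at or _x_at, whose probes can match several transcripts, had a median deviation of 0.44, and the 45 with a plain _at name 0.08. Over all genes these medians were 0.13 and 0.02. Mcm2 was 12.47 in tumor 1 and 11.48 to 11.88 elsewhere on its representative 1434079_s_at, but 10.86 in tumor 1 on 1448777_at, inside the 10.53 to 11.19 of the others. Mcm4 and Mcm5, highest in tumor 1 on their representatives, were highest in tumor 3 on 1416214_at and 1415945_at, with 11.84 and 10.60 against 11.40 and 10.11 in tumor 1. Read from plain _at probe sets alone, which 37 genes have, 9 genes (24.3%) were highest in tumor 1 and 20 (54.1%) in tumor 3, against 24.5% and 11.8% of all genes with such probe sets. The count in tumor 1 was thus at the share of all genes with such probe sets. Among plain _at probe sets detected in every tumor, tumor 1 was highest in 11 of 45 of replication genes. Over all genes it was highest in 2202 of 11136. On the same probe sets 18 genes were lowest in tumor 5 and 8 in tumor 2 (13.9% and 8.34% of all genes with such probe sets). With tumor 1 left out, 24 of the 41 genes were lowest in tumor 5, 12 in tumor 2 and 21 were highest in tumor 3. The shares of all genes tested were 16.1%, 11.3% and 15.6%.

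**Figure D3:**
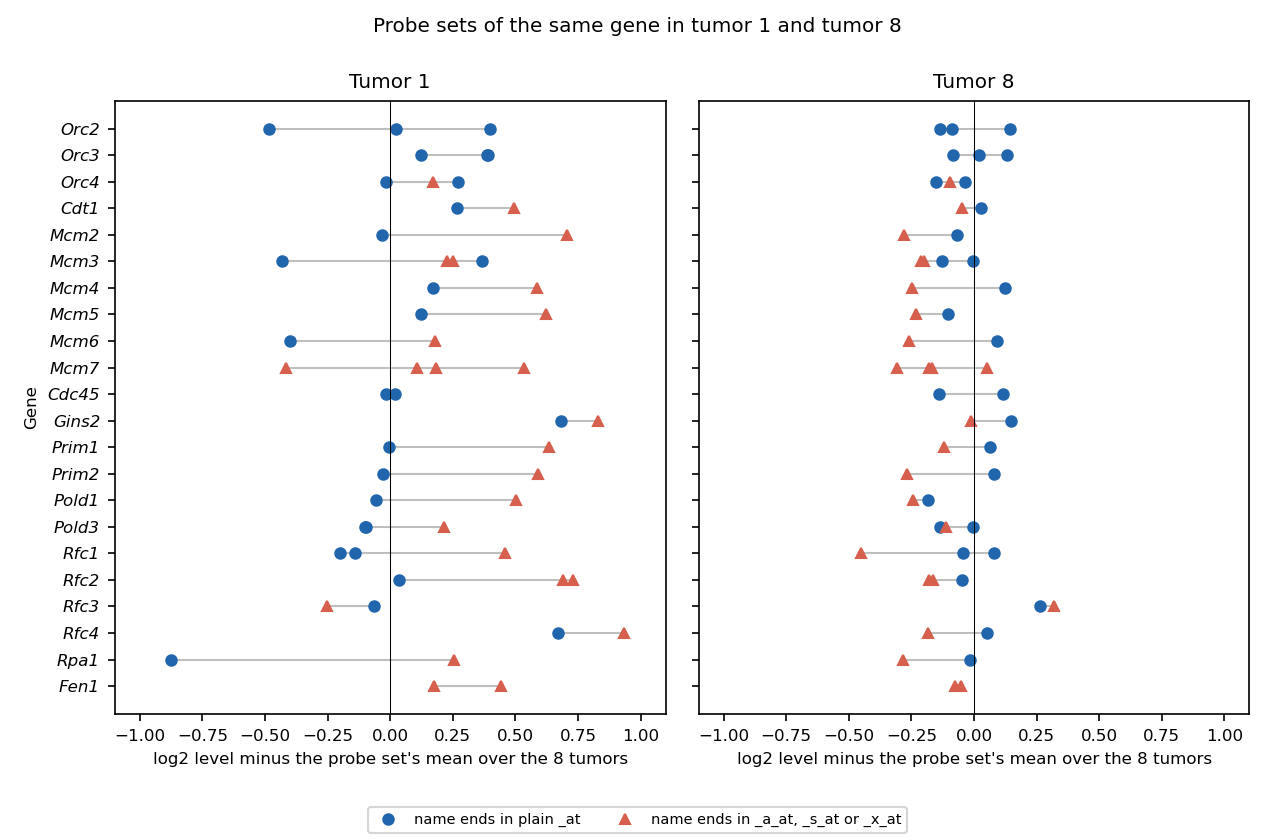
Deviation of each probe set from its own mean over the 8 tumors (horizontal axes, log2) for the 22 genes with 2 or more probe sets detected in every tumor (vertical axis), in tumor 1 and in tumor 8. Gray lines join probe sets of a gene, and in tumor 1 the triangles (_a_at, _s_at or _x_at names) mostly lie to the right of the circles (plain _at names), for example in Mcm2 and Rpa1.

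Other genes of S phase were read from a list of 49, of which 47 were tested and 44 detected in every tumor. Their median deviation was 0.17 in tumor 1, -0.41 in tumor 2, 0.38 in tumor 3, 0.28 in tumor 4 and -0.35 in tumor 5. In this list 22 genes were lowest in tumor 2 and 15 in tumor 5, whereas 10 and 23 of the replication genes were. The widest range, 2.18, was that of E2f2, an E2F factor, with 7.76, 9.19, 9.94, 9.95, 9.87, 9.63, 9.07 and 9.82 in tumors 1 to 8. It was thus low in tumor 1 and not in tumor 5. Dscc1, of an alternative clamp loader, was 10.29, 8.60, 9.93, 9.72, 8.23, 9.44, 8.73 and 9.35. E2f8, an E2F repressor, and Ccne2, a cyclin of S-phase entry, had ranges of 1.83 and 1.52 and were likewise highest in tumor 1. The order of Dscc1 was that of many replication genes, with tumors 5 and 2 at the low end.

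Of 25 mitosis genes, 24 were measured, and all 24 were detected in every tumor. Their median deviation was 0.61 in tumor 3, 0.31 in tumor 4, -0.50 in tumor 2 and -0.36 in tumor 5. In tumor 3, 19 of 24 were highest, and none was below its mean. Mki67, the proliferation marker, was 12.52, 11.77, 13.39, 13.05, 12.70, 12.76, 12.41 and 12.45 in tumors 1 to 8. Nek2, a centrosome kinase, was 9.88, 9.10, 10.68, 10.25, 9.40, 10.15, 8.54 and 9.79. Mki67 was lowest in tumor 2 and near its mean in tumor 5, and Nek2 was lowest in tumor 7. Cdc25c, a phosphatase of mitotic entry, and Nusap1, a spindle protein, were lowest in tumor 7 too, with ranges of 2.11 and 2.06.

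**Figure D4:**
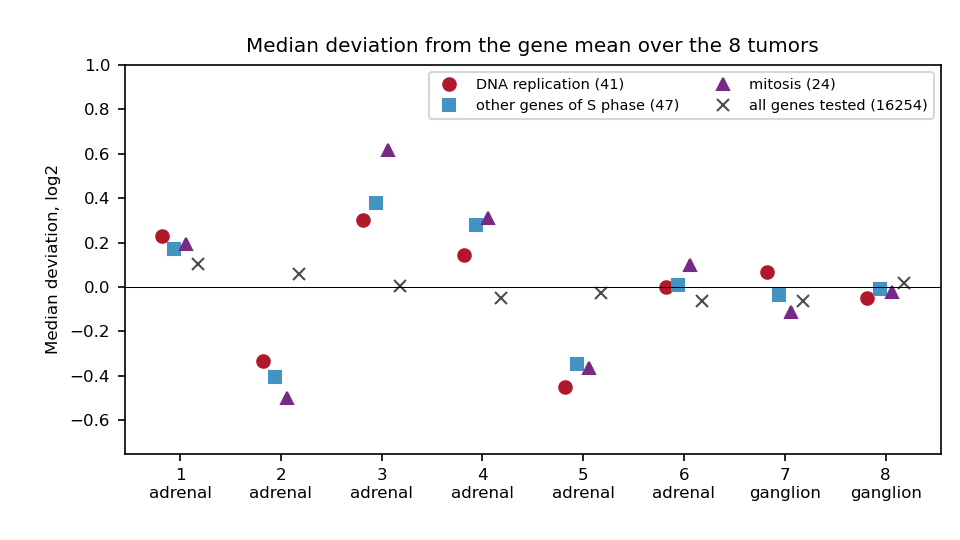
Median deviation from the gene means (vertical axis, log2) in each tumor (horizontal axis) of the 41 replication genes, 47 other S phase genes, 24 mitosis genes and all 16254 genes tested. The 3 lists lie below -0.3 in tumors 2 and 5 and above 0.2 in tumor 3, while all genes stay between -0.06 and 0.11.

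The labels allow a comparison of the sites, 2 ganglion tumors against 6 adrenal tumors, by limma with Benjamini-Hochberg adjustment over all 16254 genes. None of the 41 replication genes passed an adjusted p of 0.05 in either direction, and 0 had an unadjusted p below 0.05 (761 of all genes, 4.68%, did). Over all genes 3 were called (0.0185%), all higher in the ganglion tumors. They were Acta1 and Tnnt3, of skeletal muscle, and Clvs2, named here for their calls. Tnnt3 was below the detection limit in every tumor, with 6.23 in tumor 7 and 6.02 in tumor 8. No replication gene had both ganglion levels above or both below all adrenal levels, which 2.31% and 2.1% of all genes had. The differences, ganglion minus adrenal, ran from -0.55 to 0.34 with a median of 0.0074, and 23 were above 0 and 18 below. Their SEs were 0.12 to 0.40, and with 2 tumors in a group the comparison does not show equal levels. The number of all genes called became 951 without tumor 8, 8 without tumor 7 and 9 without tumors 6 and 7, and in each case 0 of the 41 were called.

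Rpa3 had the lowest difference, -0.55 (SE 0.30, limma adjusted p = 0.90). Its ganglion levels were 10.09 in tumor 7 and 11.09 in tumor 8, and 10.85 to 11.71 in the adrenal tumors, so it rested on tumor 7. Rfc1, the large loader subunit, had the highest, 0.34 (SE 0.21, limma adjusted p = 0.90), from 10.56 in tumor 7 and 9.96 in tumor 8 against 9.60 to 10.26. The exact two-sided permutation p of Rfc1 was 0.18, the lowest of the 41, and the smallest that 28 splits of the tumors allow is 0.036. Next by limma's p was Mcm2, with -0.28 (SE 0.24, limma adjusted p = 0.93). Tumor 7, which set Rpa3 and Rfc1 apart, is the tumor with low neuroblast markers described above, and the part of this was not tested. No gene of the S phase and mitosis lists was called either.

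**Figure D5:**
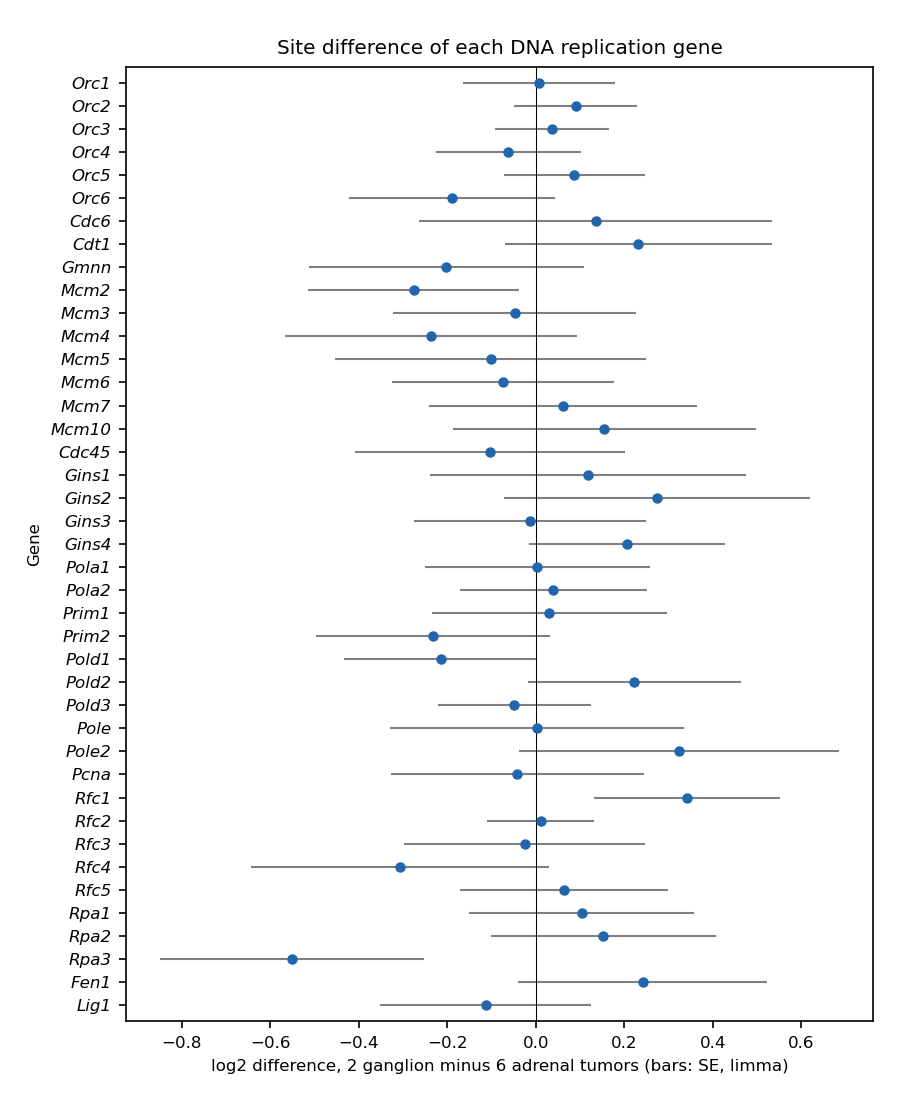
Difference of each replication gene between the sites (horizontal axis, log2, mean of 2 ganglion tumors minus mean of 6 adrenal tumors, bars SE from limma). Points run from -0.55 for Rpa3 to 0.34 for Rfc1, and all bars but those of Mcm2, Rfc1 and Rpa3 cross 0.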

How the data were processed

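Total RNA of the 8 tumors was hybridized to Affymetrix oligonucleotide arrays. The authors deposited log2 values per probe set. RMA and Partek 6.6 appear in the submitters' processing notes and gcRMA in the study's methods, and which was applied is not settled here, so background correction and normalization are those of the authors. Of 45101 probe sets, 34958 had 1 gene in the platform annotation, 932 several and 9211 none, and only the first were used. Symbols were updated through Entrez identifiers in a RefSeq table of GRCm38.p6 (34754 matched). As in the methods, the probe set with the highest mean stood for a gene. Genes that exceeded log2 5 in 2 tumors or more entered limma 3.58.1 in R 4.3.3 (lmFit, eBayes, adjusted p threshold 0.05). Other values were computed in Python 3.11.15 with pandas 2.3.3, scipy 1.17.1 and matplotlib 3.10.9. The limma step was tested on simulated data. Precision is limited by the number of arrays.

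The 41 genes, the other lists and the markers were chosen with earlier results of these data known. Levels in all 8 tumors are given for replication genes called between the sites (there were none) and, in each group, for the 2 genes with the largest range (1 in groups of 3 or fewer) and the 1 with the smallest. Some other probe sets are named where ranges or tumors of highest level differ, but not all such probe sets are. A gene without a named second probe set may still differ between its probe sets. Of the S phase and mitosis lists, up to 4 genes of largest range are named. Any other gene was named with its values already seen. The alternatives concerned normalization, filters, probe set choice, detection limit, test and left-out tumors.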

Additional observations from a re-analysis of the deposited data

Results flagged for a closer look

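A Dixon test of the highest and lowest tumor was run on 52 measures (the 41 genes, the medians of the 10 groups and that of all 41 genes), over the 6 adrenal tumors and over all 8, 104 values in all. The gap of the extreme tumor to its neighbor is given as a share of the whole range, and chance passes the limit in about 1 of 20 such tests. Of the 104 values 3 passed, a smaller share than 1 in 20. Orc4 in tumor 5 was the lowest of the 6 adrenal tumors, with 8.95 against 9.30 to 9.50 and a gap of 0.636. This held for its representative only. The probe sets 1423336_at and 1423337_at of Orc4 read 8.84 and 7.80 in tumor 5 and were lowest in tumor 2. Mcm2 in tumor 1 was the highest of all 8 tumors, with 12.47 against 11.48 to 11.88 and a gap of 0.5965, and its second probe set had no such gap. Pole in tumor 2 was the lowest of all 8, with 8.88 against 9.68 to 10.35 and a gap of 0.5431.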

How the results depend on the processing

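None of the replication genes (41, or 37 with plain _at probe sets) was called between the sites under any alternative run, whether in normalization, filter, probe set, test or left-out tumors. The lowest adjusted p of any of them, by limma, was 0.10, for Rpa3 without tumor 8. Leaving out tumor 7 or 8 leaves 1 ganglion tumor, which is assumed to vary like the others. The small differences are not settled in direction, since 30 of the 41 changed sign under some alternative. Rpa3 was 0.020 higher in the ganglion tumor left without tumors 1, 6 and 7 (limma adjusted p = 1.0), a set added after seeing the data, which leaves tumor 8 alone. The number of all genes called, 3, became 1 with a log2 7 filter, 6 with the mean of all probe sets of a gene, 5 with every probe set on its own, 1 with plain _at probe sets (also added) and 9 without tumors 6 and 7. Leaving out each tumor gave 2 to 951 genes, with 951 without tumor 8 and 8 without tumor 7. The cause was not tested. Counted by probe set, 73 of 89 were detected in every tumor. Over all alternatives the median deviation of the 41 genes ran from 0.08 to 0.27 in tumor 1, -0.37 to -0.24 in tumor 2, 0.23 to 0.36 in tumor 3, 0.11 to 0.24 in tumor 4 and -0.49 to -0.34 in tumor 5. Some group medians moved too. In tumor 1, plain _at probe sets gave -0.03 for MCM2-7, against 0.41, -0.06 for polymerase delta, against 0.36, and -0.17 for Okazaki fragment maturation, against 0.13. The mean of all probe sets gave -0.31 for RPA, against 0.26, and 0.29 for ORC, against 0.13. In tumor 7, Okazaki fragment maturation was -0.20 with plain _at probe sets and 0.44 with every probe set on its own, against 0.12. No paired analysis was possible because the sources used here do not say which tumors, if any, came from the same mouse.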
